A study of Rattus norvegicus with 31 samples.

Results

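Mitochondrial ribosomal proteins were followed in motor neurons of the rat tail as 79 probe sets of 68 genes, which were all probe sets whose single gene symbol begins with Mrpl or Mrps and a digit. They were taken from 12913 tested probe sets that name 9769 genes. By symbol, 49 probe sets (44 genes) belong to the large subunit and 30 (24 genes) to the small subunit. All animals were adult male Wistar rats, with 1 array per animal. Uninjured rats formed the Control group (n = 4), and rats whose cord had been cut through at the sacral segment S2, with 1-2 mm of tissue taken out, were killed after 2 days (Spi-2, n = 6), 7 days (Spi-7, n = 5), 21 days (Spi-21, n = 8) or 60 days (Spi-60, n = 8). Every rat, uninjured ones included, had received the retrograde tracer Fluoro-Gold, and labelled neurons at S3 and S4 were cut out by laser and their RNA amplified in 2 rounds before hybridization. Arrays of both late groups had been made in an earlier study, whose sham-operated animals were not analysed here, so that study and time after injury cannot be told apart in those comparisons.

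The mitochondrial ribosome translates the few messenger RNAs that are encoded in mitochondrial DNA, all of which specify core subunits of the respiratory chain and the ATP synthase. Its RNAs come from the mitochondrial genome, but all of its proteins are encoded in the nucleus, made in the cytosol and imported. The small subunit decodes the messenger RNA and the large subunit forms the peptide bond and is held at the inner membrane. Many of the proteins descend from those of the bacterial ribosome, while others are found only in mitochondria. Motor neurons, with their large cell bodies and long axons, depend on this machinery for oxidative ATP production.

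The 8 measured motor neuron markers of 10 listed (among them Nefh, Nefm, Prph and Slc18a3) had a mean level between 9.87 and 10.48 on the log2 scale in all 31 arrays, against array medians of 5.95 to 6.10, and 6 of the 8 lay above the array median in Control. Single probe sets of these markers differed from Control in both directions. Their log2 differences ran from -1.18 to 0.59 at day 2, -1.04 to 0.78 at day 7, -1.11 to 0.78 at day 21 and -1.06 to 0.79 at day 60. Markers of other cells of the cord were measured beside them. The mean level of all 8 microglia and macrophage markers ran from 5.60 to 5.88 in Control, from 6.48 to 7.41 in Spi-2, from 6.02 to 7.09 in Spi-7, from 5.53 to 7.38 in Spi-21 and from 5.92 to 7.46 in Spi-60. The 5 measured oligodendrocyte and myelin markers of 6 listed ran from 7.69 over a median of 8.50 to 8.55 in Control, with lower medians of 7.64, 7.80, 7.70 and 7.93 in Spi-2, Spi-7, Spi-21 and Spi-60 and overlapping ranges. The 5 interneuron markers ran from 6.31 over 7.32 to 7.91 in Control, and their medians were likewise lower in all injured groups, at 6.53, 6.29, 5.91 and 6.15 in the same order. For the 5 astrocyte markers measured of 6 listed the group medians lay between 7.09 and 7.39, with 7.35 in Control. Their probe sets went both ways, with log2 differences from Control of -0.81 to 2.45 at day 2 and -0.62 to 1.33 at day 7. At days 21 and 60 these ran from -0.96 to 1.34 and from -0.79 to 1.83. Of 5 endothelial markers only Vwf was measured, which stayed between 5.74 and 7.01 in all animals except Spi-2 replicate 4, where it read 9.77. The part of these cells in the results on ribosomal proteins was not tested. In such pooled samples fewer cells of a type and less RNA per cell cannot be told apart.

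Between 3 and 27 of the 79 probe sets of mitochondrial ribosomal proteins were called lower than Control at a given day after injury, and between 3 and 5 were called higher. A probe set was called at a Benjamini-Hochberg adjusted p under 0.05 in a comparison with Control and at a false discovery rate of 0.02 in the F-test over the 5 groups, both from limma fitted to all tested probe sets. At day 2, 15 members were called lower (background 4.98% of all tested probe sets) and 3 higher (background 3.9%). At day 7, 3 were called lower (background 1.67%) and 3 higher (background 0.914%). Day 21 had 20 falling members (background 10.7%) and 5 rising ones (background 5.94%). Day 60 had 27 that fell (background 9.89%) and 5 that rose (background 7.2%). In both directions together the calls came to 18 at day 2 (background 8.87%), 6 at day 7 (2.59%), 25 at day 21 (16.6%) and 32 at day 60 (17.1%). As shares of the 79 members the lower calls came to 19%, 3.8%, 25.3% and 34.2% at days 2, 7, 21 and 60, each above the share of all probe sets. Most members are bright, however, and lower calls were more frequent among bright probe sets. Within the brighter 50%, which held 71 members, 22.5%, 8.45%, 28.2% and 38% of members were called lower. The background there was 10.1%, 3.78%, 19.5% and 18.5%. The higher calls came to 3.8%, 3.8%, 6.33% and 6.33%, which at days 2, 21 and 60 was near the background. The 4 comparisons share the same 4 Control arrays.

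The F-test over the 5 groups called 20 members, 14 of the large and 6 of the small subunit, which is 25.3% against a background of 16.2%. Together the F-test and the comparisons called 36 probe sets of 32 genes, of which 22 belonged to the large and 14 to the small subunit, and 43 probe sets received no call. This combined count was not made over all tested probe sets. A negative difference from Control, called or not, was found in 55 members at day 2 (background 50.1%), 59 at day 7 (50.6%), 59 at day 21 (48.2%) and 58 at day 60 (49.5%). In 48 members it was negative on all 4 days, in 12 it was positive on all 4. How many of all tested probe sets kept the same sign on all 4 days was not counted. The median log2 difference of the 79 members was -0.18, -0.15, -0.21 and -0.29 at days 2, 7, 21 and 60, while the median over all tested probe sets was at 0.01 or nearer to 0. Among the uncalled members the differences stayed between -0.52 and 0.42 over the 4 days.

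Averaged over the 79 members, the deviation from the Control mean was 0 ± 0.05 for Control animals (SD, n = 4) and -0.20 ± 0.11 for Spi-2 animals (n = 6). It was -0.18 ± 0.09 for Spi-7 (n = 5), -0.23 ± 0.18 for Spi-21 (n = 8) and -0.28 ± 0.09 for Spi-60 animals (n = 8). All animals of Spi-2, Spi-7 and Spi-60 lay below the lowest Control animal at -0.06, while Spi-21 reached from -0.40 up to 0.02 and overlapped with Control. This separation depended on the normalization. After a further quantile normalization the lowest Control animal was at -0.0580. Spi-7, up to -0.0696, stayed below it, while Spi-2 (up to -0.0348), Spi-21 (up to 0.08) and Spi-60 (up to -0.0575) overlapped with Control. The subunits were also averaged apart. Large-subunit means were -0.22 ± 0.13, -0.19 ± 0.08, -0.23 ± 0.18 and -0.29 ± 0.11 in Spi-2, Spi-7, Spi-21 and Spi-60, and those of the small subunit -0.18 ± 0.09, -0.16 ± 0.12, -0.21 ± 0.18 and -0.26 ± 0.08.

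**Figure D1:**
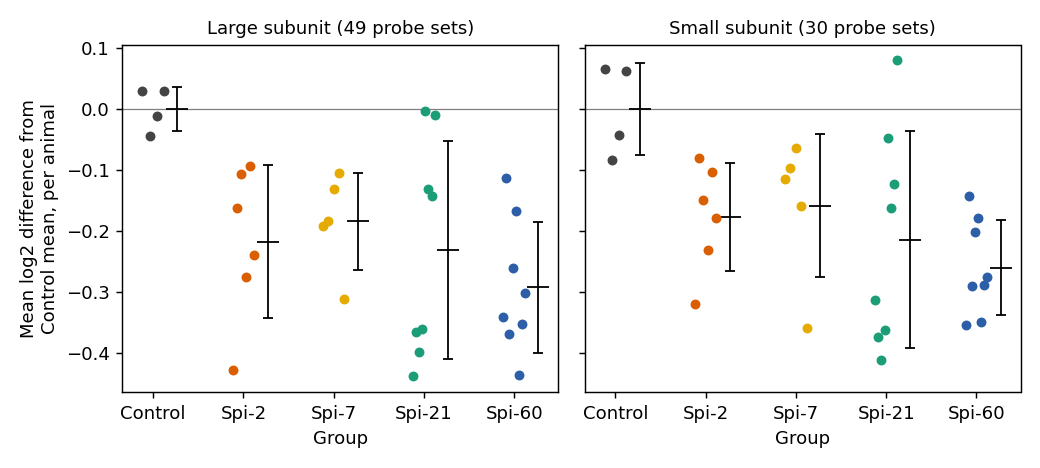
Mean log2 difference from the Control mean over the 49 probe sets of the large subunit (left) and the 30 of the small subunit (right). Points are animals and the crossbars give the mean ± SD of each group. Spi-21 splits into 4 animals near Control and 4 below -0.3 in both panels.

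The medians of the subunits differed by -0.04, -0.04, -0.03 and -0.02 (large minus small, log2) at days 2, 7, 21 and 60. The gaps were not tested. Of the large-subunit probe sets 9, 2, 12 and 18 were called lower at days 2, 7, 21 and 60 and 2, 2, 3 and 4 higher, and of the small-subunit probe sets 6, 1, 8 and 9 lower and 1, 1, 2 and 1 higher. As shares, the lower calls came to 18.4%, 4.08%, 24.5% and 36.7% of the large and 20%, 3.33%, 26.7% and 30% of the small subunit, beside 4.98%, 1.67%, 10.7% and 9.89% of all tested probe sets. Mrps18a and Mrps30 carry small-subunit symbols but sit in the large subunit in structures of the mammalian particle, and neither was called on any day. Moving both to the large subunit gave gaps of -0.08, -0.10, -0.03 and -0.02.

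Mrpl13, whose bacterial counterpart joins the large subunit early in assembly, had the smallest p in the F-test (probe set 1388931_at, adjusted p = 0.000183). Its log2 values in the 4 Control animals were 9.05, 8.97, 9.18 and 9.38, and in the 5 Spi-7 animals 8.38, 8.58, 8.45, 8.10 and 8.68. Spi-2 ran from 7.85 over a median of 8.03 to 8.47, Spi-21 from 8.25 over 8.63 to 8.88 and Spi-60 from 8.06 over 8.33 to 8.60. Every injured animal was thus below every Control animal. The fall was 1.02 ± 0.15 in log2 (the ± after a log2 difference is the standard error of the fit) at day 2 (limma adjusted p = 5.39e-05), and the differences at days 7, 21 and 60 were -0.71 ± 0.15, -0.56 ± 0.14 and -0.81 ± 0.14, with adjusted p = 0.00774, 0.0066 and 0.000267.

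Mrpl27 lies close to the centre where the peptide bond is made. Its probe set 1399047_at read 8.47, 7.84, 8.23 and 8.77 in Control and 7.42, 7.24, 7.43, 7.49 and 7.69 in Spi-7. Values in Spi-2 ran from 6.88 over a median of 7.32 to 7.59, in Spi-21 from 7.36 over 7.65 to 8.11 and in Spi-60 from 7.34 over 7.55 to 8.22. Both early groups lay below Control without overlap, whereas some animals of both late groups reached into the Control range. At day 2 the level was 0.489 of Control (log2 difference -1.03 ± 0.17, limma adjusted p = 0.000412), and the differences were -0.87 ± 0.18, -0.57 ± 0.17 and -0.72 ± 0.17 at days 7, 21 and 60 (adjusted p = 0.00632, 0.0183 and 0.00348).

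For Mrpl33, a small protein near the site from which tRNAs leave, probe set 1371512_at gave 10.06, 9.92, 9.92 and 9.86 in Control and 9.84, 9.58, 9.48, 9.42 and 9.28 in Spi-7. The values reached from 9.20 over a median of 9.55 to 9.71 in Spi-2, from 9.07 over 9.34 to 9.55 in Spi-21 and from 8.98 over 9.18 to 9.43 in Spi-60. No injured animal overlapped with Control in any group. The differences were -0.42 ± 0.11, -0.42 ± 0.12, -0.62 ± 0.11 and -0.74 ± 0.11 at days 2, 7, 21 and 60 (limma adjusted p = 0.0186, 0.0514, 0.000507 and 5.71e-05), so that day 7 was not called. The promoters of Mrpl33 (chr6:30553988-30554237, minus strand) and Mrpl27 (chr10:80092095-80092344, plus strand) are shown because both genes fell and both hold the letters CCGGAAG, the core bound by ETS factors such as GABP, given in capitals. They cover the 250 bases before the transcript start in RefSeq on GRCr8, written 5′ to 3′ on the strand of the gene.
Mrpl33: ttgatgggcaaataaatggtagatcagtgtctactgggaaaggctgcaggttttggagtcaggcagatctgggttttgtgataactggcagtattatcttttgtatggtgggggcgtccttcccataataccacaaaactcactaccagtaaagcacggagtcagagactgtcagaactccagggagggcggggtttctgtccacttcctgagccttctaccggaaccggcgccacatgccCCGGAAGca
Mrpl27: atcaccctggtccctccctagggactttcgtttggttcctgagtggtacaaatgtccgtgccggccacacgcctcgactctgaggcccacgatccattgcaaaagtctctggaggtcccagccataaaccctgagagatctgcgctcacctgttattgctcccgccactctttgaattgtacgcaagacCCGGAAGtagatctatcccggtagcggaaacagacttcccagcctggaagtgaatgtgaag

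Mrpl18, a protein of the central protuberance, fell by 0.63 ± 0.17, 0.88 ± 0.16 and 0.86 ± 0.16 at days 2, 21 and 60 (limma adjusted p = 0.0192, 0.000758 and 0.00074), with -0.52 ± 0.18 at day 7 (adjusted p = 0.122). Probe set 1399058_at gave 8.82, 8.41, 8.63 and 8.41 in Control and 8.26, 8.05, 8.15, 8.26 and 7.52 in Spi-7. Its values ran from 7.27 over a median of 8.02 to 8.40 in Spi-2, from 7.15 over 7.69 to 7.99 in Spi-21 and from 7.32 over 7.75 to 7.93 in Spi-60. None of the injured groups overlapped with Control, although the highest Spi-2 animal came within 0.01 of the lowest Control animal.

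Mrpl16 lies close to the tRNA binding sites of the large subunit and was called at day 60 alone. In Control its probe set 1371967_at read 8.91, 8.61, 8.72 and 8.66, and in Spi-7 8.40, 8.29, 8.61, 8.30 and 8.32. Spi-2 covered 8.24 to 8.72 (median 8.56), Spi-21 covered 7.80 to 8.84 (median 8.22) and Spi-60 covered 7.56 to 8.35 (median 7.85). Spi-2 and Spi-21 overlapped with Control and Spi-60 did not. The differences were -0.18 ± 0.17, -0.34 ± 0.18, -0.41 ± 0.17 and -0.82 ± 0.17 at days 2, 7, 21 and 60, with limma adjusted p = 0.607, 0.361, 0.0797 and 0.00109.

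Mrpl50, a protein found only in mitochondria, was measured by 2 probe sets that were both called at days 21 and 60. Probe set 1372927_at read 8.29, 8.56, 8.75 and 8.84 in Control and 8.20, 8.01, 7.82, 7.99 and 7.74 in Spi-7, with 7.62 to 8.42 (median 7.86) in Spi-2, 7.05 to 8.61 (median 7.57) in Spi-21 and 7.67 to 8.18 (median 7.75) in Spi-60. Spi-7 and Spi-60 lay below Control without overlap. It fell by 0.71 ± 0.19, 0.94 ± 0.18 and 0.76 ± 0.18 at days 2, 21 and 60 (limma adjusted p = 0.0165, 0.00102 and 0.00436), and the difference at day 7 was -0.66 ± 0.20 (adjusted p = 0.0662). Probe set 1376585_at read 6.88, 6.85, 7.12 and 6.42 in Control and 6.59, 6.32, 6.81, 6.55 and 5.94 in Spi-7, with 6.34 to 6.93 (median 6.58) in Spi-2, 5.35 to 6.56 (median 6.01) in Spi-21 and 5.76 to 6.43 (median 6.10) in Spi-60. It overlapped with Control in all 4 injured groups. Its differences were -0.22 ± 0.20, -0.38 ± 0.21, -0.85 ± 0.19 and -0.70 ± 0.19 (limma adjusted p = 0.569, 0.38, 0.00351 and 0.0104).

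Mrpl45, which anchors the ribosome at the inner membrane beside the exit of the peptide tunnel, rose on all 4 days. Its probe set 1371790_at read 7.98, 8.35, 8.03 and 8.18 in Control and 8.60, 8.84, 8.65, 8.78 and 9.17 in Spi-7, with 8.33 to 9.08 (median 8.78) in Spi-2, 8.63 to 9.46 (median 8.84) in Spi-21 and 8.50 to 9.15 (median 8.92) in Spi-60. Only Spi-2 overlapped with Control, where the lowest animals lay just under the highest Control value. The level was 1.51, 1.60, 1.74 and 1.67 times that of Control at days 2, 7, 21 and 60. These are log2 differences of 0.59 ± 0.17, 0.68 ± 0.17, 0.80 ± 0.16 and 0.74 ± 0.16 with limma adjusted p = 0.022, 0.0272, 0.00131 and 0.00178.

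Mrps27, an RNA-binding protein with pentatricopeptide repeats, was the only small-subunit gene called higher. Probe set 1386471_at read 5.55, 5.81, 5.49 and 5.77 in Control and 6.04, 6.04, 5.95, 6.14 and 6.00 in Spi-7, with 5.79 to 6.13 (median 5.99) in Spi-2, 5.94 to 6.44 (median 6.08) in Spi-21 and 5.89 to 6.22 (median 5.99) in Spi-60. Spi-7, Spi-21 and Spi-60 lay above Control without overlap. It rose by 0.33 ± 0.10, 0.38 ± 0.10, 0.48 ± 0.09 and 0.36 ± 0.09 on the 4 days (limma adjusted p = 0.0313, 0.0375, 0.00126 and 0.0073). The second probe set, 1372916_at, read 7.75, 7.46, 7.27 and 7.40 in Control and 7.62, 7.84, 8.08, 7.63 and 7.70 in Spi-7, with 7.58 to 8.11 (median 7.87) in Spi-2, 7.60 to 8.16 (median 7.90) in Spi-21 and 7.45 to 8.10 (median 7.76) in Spi-60. All injured groups overlapped with the highest Control animal here. It was called at day 21 alone, at 0.43 ± 0.13 (limma adjusted p = 0.0205), and differed by 0.40 ± 0.14, 0.30 ± 0.14 and 0.34 ± 0.13 at days 2, 7 and 60 (adjusted p = 0.057, 0.286 and 0.0619).

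The promoters of the rising genes Mrpl45 (chr10:82804789-82805038, plus strand) and Mrps27 (chr2:32473954-32474203, plus strand) are shown beside those of the falling genes because they hold letters of the same kind. Capitals mark the NRF-1 motif (GCGC, A, any base and GCGC in a row), which occurs at 2 places in Mrpl45, and CTTCCGG, which is CCGGAAG read on the other strand, in Mrps27.
Mrpl45: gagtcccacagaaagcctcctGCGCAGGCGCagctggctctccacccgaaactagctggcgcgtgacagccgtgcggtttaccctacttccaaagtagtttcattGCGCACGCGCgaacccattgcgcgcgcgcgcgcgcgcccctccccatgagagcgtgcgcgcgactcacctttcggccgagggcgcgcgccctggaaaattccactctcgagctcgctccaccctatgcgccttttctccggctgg
Mrps27: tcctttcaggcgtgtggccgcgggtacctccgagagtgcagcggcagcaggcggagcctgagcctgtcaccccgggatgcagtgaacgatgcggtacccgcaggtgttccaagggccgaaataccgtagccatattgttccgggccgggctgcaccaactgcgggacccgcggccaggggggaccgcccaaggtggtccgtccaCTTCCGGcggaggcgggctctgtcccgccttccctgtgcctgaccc

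RefSeq promoters of 300 bases, from 250 before to 50 after the start, were at hand for 56 of the 68 genes. Searched on both strands, the NRF-1 motif stood in 16.1% of them against 4.71% of all 27457 promoters of the table, CCGGAAG (ETS/GABP) in 33.9% against 9.22%, and AAGATGGC (YY1) in 23.2% against 3.44%. These motifs mark many nuclear genes for mitochondrial proteins. At least 1 of the 3 stood in 31 of the 56 promoters (55.4%, against 15.5% of all promoters). Among genes called lower it was 11 of 20, among genes called higher 4 of 5 and among genes without a call 16 of 31. A match describes the letters in this window and not a bound site.

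**Figure D2:**
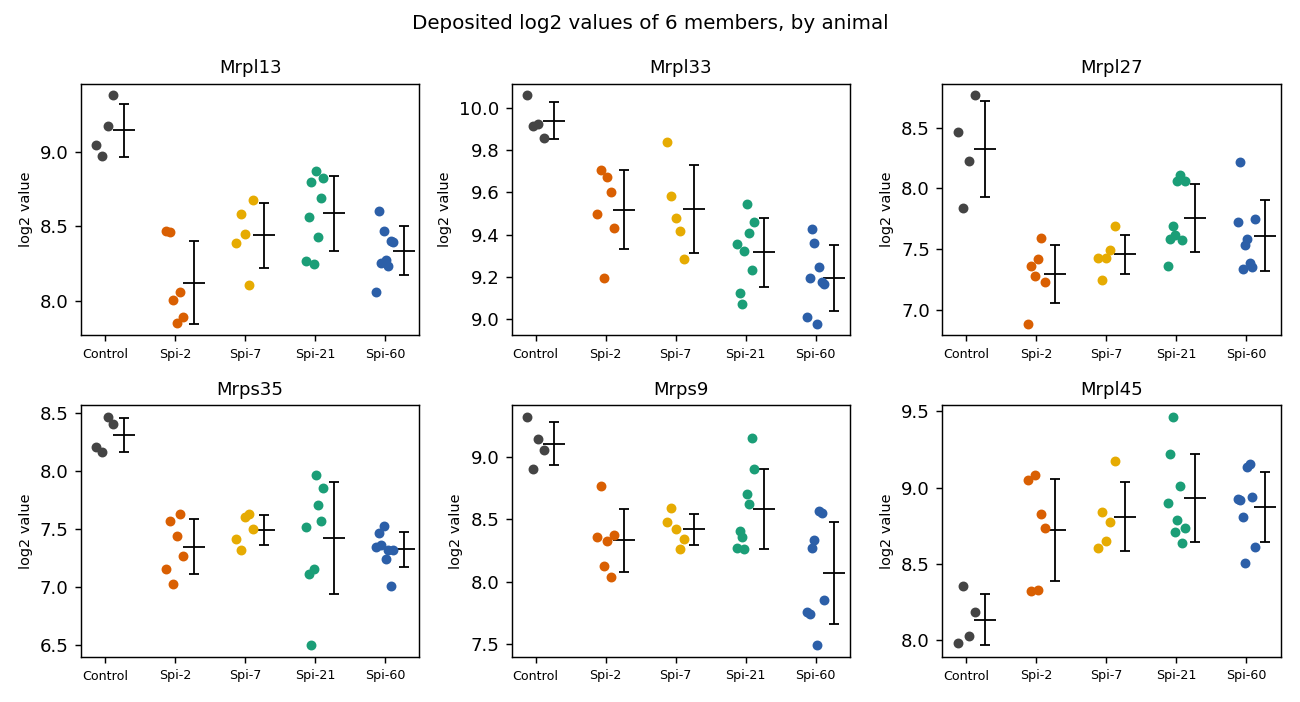
Deposited log2 values of 6 members in every animal (points) with the group mean ± SD (crossbars), for Control and 2, 7, 21 and 60 days after transection. In Mrpl13 and Mrpl33 all injured animals lie below all Control animals, and Mrpl45 runs the other way with an overlap in Spi-2. The vertical axes differ between panels and do not start at 0.

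Further large-subunit probe sets passed the F-test. Mrpl15, Mrpl1 and Mrpl42 were called lower at days 2, 21 and 60, and Mrpl51 at days 2 and 60. Day 2 calls of Mrpl15, Mrpl42 and Mrpl51 were near the threshold (limma adjusted p = 0.0415, 0.0352 and 0.0496). They were lost in 8, 9 and 9 of 10 fits that left out 1 animal of Control or Spi-2. That of Mrpl1 (adjusted p = 0.0177) was lost in 1 of 10. Mrpl15 fell by 0.71 ± 0.22, 0.94 ± 0.21 and 0.85 ± 0.21 at days 2, 21 and 60, and all injured animals, up to 7.95, lay below the lowest Control value of 8.07. Mrpl1, 9.32 to 9.53 in Control, was lower without overlap in Spi-2 (8.29 to 8.94), Spi-7 (8.51 to 9.26) and Spi-60 (8.07 to 8.99). Mrpl42 fell by 0.72 ± 0.22, 0.77 ± 0.21 and 0.91 ± 0.21, with Control at 7.69 to 7.89 and Spi-60 at 6.57 to 7.17. Mrpl41, without a call, differed from Control by -0.06 to 0.03 on the 4 days.

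Mrpl37 and Mrpl28 joined Mrpl45 among the higher members. Mrpl37 (probe set 1398921_at) ran from 10.94 to 11.38 in Control, from 11.17 to 11.81 in Spi-2, from 11.57 to 11.86 in Spi-7, from 11.40 to 11.99 in Spi-21 and from 11.16 to 11.83 in Spi-60. Spi-7 and Spi-21 lay above Control without overlap. It rose by 0.46 ± 0.14, 0.60 ± 0.15, 0.59 ± 0.13 and 0.45 ± 0.13 on the 4 days (limma adjusted p = 0.0384, 0.0217, 0.00388 and 0.0188). Mrpl28 was called at the late times, where it rose by 0.43 ± 0.12 at day 21 and 0.40 ± 0.12 at day 60 (limma adjusted p = 0.0154 and 0.0203), with 0.04 ± 0.13 and 0.13 ± 0.13 at days 2 and 7. It overlapped with Control, which ran from 7.31 to 8.00, in every group.

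The other called probe sets of the large subunit passed a comparison but not the F-test. Mrpl20, Mrpl21 and Mrpl32 were called lower at days 21 and 60, and Mrpl30, Mrpl44, Mrpl46 and Mrpl47 at day 60 alone. Their day 60 differences ran from -0.89 ± 0.23 (Mrpl21) to -0.42 ± 0.12 (Mrpl44). Mrpl57 (probe set 1375718_at) was higher at day 60, by 0.29 ± 0.10 (limma adjusted p = 0.0379).

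In the small subunit Mrps35, a protein found only in mitochondria, was called lower on all 4 days. Its probe set 1372839_at read 8.21, 8.16, 8.47 and 8.41 in Control and 7.42, 7.32, 7.60, 7.63 and 7.50 in Spi-7. Spi-2 ran from 7.02 over a median of 7.35 to 7.63, Spi-21 from 6.50 over 7.54 to 7.96 and Spi-60 from 7.01 over 7.33 to 7.52. All 27 injured animals lay below all Control animals. The level at day 2 was 0.513 of Control and at day 60 0.505 of it. In log2 terms the differences were -0.96 ± 0.18, -0.82 ± 0.19, -0.89 ± 0.17 and -0.99 ± 0.17 at days 2, 7, 21 and 60, with limma adjusted p = 0.000947, 0.0131, 0.00118 and 0.00033.

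Mrps9, whose tail reaches the peptidyl tRNA in the bacterial ribosome, was lower by both of its probe sets. Probe set 1373002_at read 9.32, 8.90, 9.14 and 9.05 in Control and 8.48, 8.59, 8.42, 8.27 and 8.34 in Spi-7, with 8.04 to 8.76 (median 8.34) in Spi-2, 8.26 to 9.15 (median 8.51) in Spi-21 and 7.49 to 8.57 (median 8.06) in Spi-60. Spi-21 overlapped with Control and the other groups did not. The fall was 0.77 ± 0.19, 0.52 ± 0.18 and 1.03 ± 0.18 at days 2, 21 and 60 (limma adjusted p = 0.00823, 0.0419 and 0.000293), and the difference at day 7 was -0.69 ± 0.19 (adjusted p = 0.0511). Probe set 1396142_at read 7.35, 6.82, 7.06 and 7.00 in Control and 6.40, 6.48, 6.50, 6.59 and 5.73 in Spi-7, with 5.88 to 6.61 (median 6.35) in Spi-2, 5.49 to 7.19 (median 6.15) in Spi-21 and 5.87 to 6.45 (median 6.38) in Spi-60. Again Spi-21 alone overlapped with Control. Its differences were -0.76 ± 0.23, -0.72 ± 0.24, -0.89 ± 0.22 and -0.78 ± 0.22 (limma adjusted p = 0.0316, 0.105, 0.00613 and 0.0128).

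Mrps18c, a homolog of a bacterial protein on the platform of the small subunit, was near Control early and lower late. Probe set 1380447_a_at read 6.00, 6.35, 6.06 and 6.26 in Control and 6.02, 6.12, 6.16, 5.72 and 5.71 in Spi-7, with 5.67 to 6.22 (median 5.94) in Spi-2, 4.33 to 6.00 (median 5.41) in Spi-21 and 4.48 to 5.66 (median 5.15) in Spi-60. Only Spi-60 was clear of the Control range. At days 2 and 7 the differences were -0.23 ± 0.23 and -0.22 ± 0.24 (limma adjusted p = 0.613 and 0.729), and it fell by 0.92 ± 0.22 at day 21 and by 1.00 ± 0.22 at day 60 (adjusted p = 0.00594 and 0.0025). The difference between the early and the late days was not tested, and it coincides with the change of study.

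Mrps2 and Mrps15, both with bacterial counterparts, were the other small-subunit genes to pass the F-test. Mrps2 (probe set 1372116_at) read 7.99, 7.25, 7.66 and 7.99 in Control and 7.61, 7.28, 7.40, 7.15 and 7.02 in Spi-7, with 6.88 to 7.29 (median 7.16) in Spi-2, 6.49 to 7.37 (median 6.92) in Spi-21 and 6.98 to 7.63 (median 7.40) in Spi-60. Every group overlapped with the lowest Control animal. It fell by 0.59 ± 0.16 at day 2 and 0.76 ± 0.16 at day 21 (limma adjusted p = 0.0207 and 0.00168), with -0.43 ± 0.17 and -0.38 ± 0.16 at days 7 and 60 (adjusted p = 0.196 and 0.0874). Mrps15 (probe set 1372697_at) read 7.78, 8.23, 7.99 and 7.60 in Control and 7.93, 8.15, 8.08, 8.23 and 7.78 in Spi-7, with 7.42 to 8.59 (median 8.21) in Spi-2, 6.42 to 8.18 (median 7.52) in Spi-21 and 6.97 to 7.75 (median 7.39) in Spi-60. It overlapped with Control throughout and was not called on any single day. The differences were 0.23 ± 0.24, 0.13 ± 0.25, -0.40 ± 0.23 and -0.54 ± 0.23, with adjusted p = 0.616, 0.858, 0.225 and 0.0975 (limma).

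Mrps14, a protein of the head of the subunit, was called by both probe sets at day 21 and by 1377937_at also at day 60. Probe set 1377937_at read 8.87, 8.96, 9.002 and 8.71 in Control and 9.004, 8.88, 8.62, 8.63 and 7.77 in Spi-7, with 7.65 to 8.83 (median 8.41) in Spi-2, 7.58 to 8.96 (median 8.21) in Spi-21 and 7.64 to 8.62 (median 7.97) in Spi-60. Probe set 1383090_at read 8.51, 8.59, 8.95 and 8.78 in Control and 8.69, 8.55, 8.41, 8.53 and 7.90 in Spi-7, with 8.23 to 8.73 (median 8.40), 7.51 to 8.47 (median 8.17) and 7.78 to 8.61 (median 8.30) in Spi-2, Spi-21 and Spi-60. The first was clear of Control in Spi-60 and the second in Spi-21. They fell by 0.69 ± 0.23 and 0.64 ± 0.17 at day 21 (limma adjusted p = 0.0338 and 0.013), and at day 60 the differences were -0.88 ± 0.23 and -0.43 ± 0.17 (adjusted p = 0.00773 and 0.0834). At day 2 they were -0.50 ± 0.24 and -0.26 ± 0.18 (adjusted p = 0.2 and 0.425) and at day 7 -0.31 ± 0.25 and -0.29 ± 0.19 (adjusted p = 0.599 and 0.488).

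Mrps33, Mrps25, Mrps21 and Mrps34 were lower by less. Mrps33 read 7.75, 7.73, 7.74 and 7.88 in Control, 7.66, 7.44, 7.61, 7.25 and 7.13 in Spi-7, 7.00 to 7.43 (median 7.21) in Spi-2, 6.74 to 7.64 (median 7.37) in Spi-21 and 6.86 to 7.69 (median 7.37) in Spi-60. It did not overlap with Control in any group and fell by 0.55 ± 0.15, 0.43 ± 0.14 and 0.44 ± 0.14 at days 2, 21 and 60 (limma adjusted p = 0.0213, 0.0397 and 0.0341), with -0.35 ± 0.16 at day 7 (adjusted p = 0.263). Mrps25 read 7.86, 7.12, 7.17 and 7.26 in Control, 7.03, 7.17, 7.31, 6.93 and 7.05 in Spi-7, 6.54 to 7.24 (median 6.92) in Spi-2, 6.94 to 7.36 (median 7.22) in Spi-21 and 6.86 to 7.12 (median 6.99) in Spi-60. The Control animal at 7.86 stood apart from the other Control animals, and Mrps25 was called at day 2 (-0.41 ± 0.13, limma adjusted p = 0.0413) and day 60 (-0.36 ± 0.12, adjusted p = 0.0388), though not at day 7 (-0.25 ± 0.13) or day 21 (-0.19 ± 0.12).

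Mrps21 read 8.01, 8.13, 8.25 and 8.14 in Control, 7.91, 7.91, 7.89, 7.77 and 7.42 in Spi-7, 7.62 to 8.09 (median 7.93) in Spi-2, 7.28 to 8.17 (median 7.78) in Spi-21 and 7.37 to 7.83 (median 7.75) in Spi-60. Spi-7 and Spi-60 were clear of Control, and the call fell at day 60 (-0.46 ± 0.14, limma adjusted p = 0.0204). The differences at days 2, 7 and 21 were -0.21 ± 0.14, -0.35 ± 0.15 and -0.37 ± 0.14. Mrps34 read 7.72, 7.91, 7.69 and 8.04 in Control, 7.72, 7.58, 7.79, 7.78 and 7.68 in Spi-7, 7.38 to 7.77 (median 7.66) in Spi-2, 7.31 to 8.09 (median 7.62) in Spi-21 and 7.36 to 7.68 (median 7.55) in Spi-60. It was clear of Control in Spi-60 alone, by a narrow gap between the nearest animals, and was called there (-0.32 ± 0.11, limma adjusted p = 0.0435). At days 2, 7 and 21 it differed by -0.21 ± 0.12, -0.13 ± 0.12 and -0.21 ± 0.11.

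**Figure D3:**
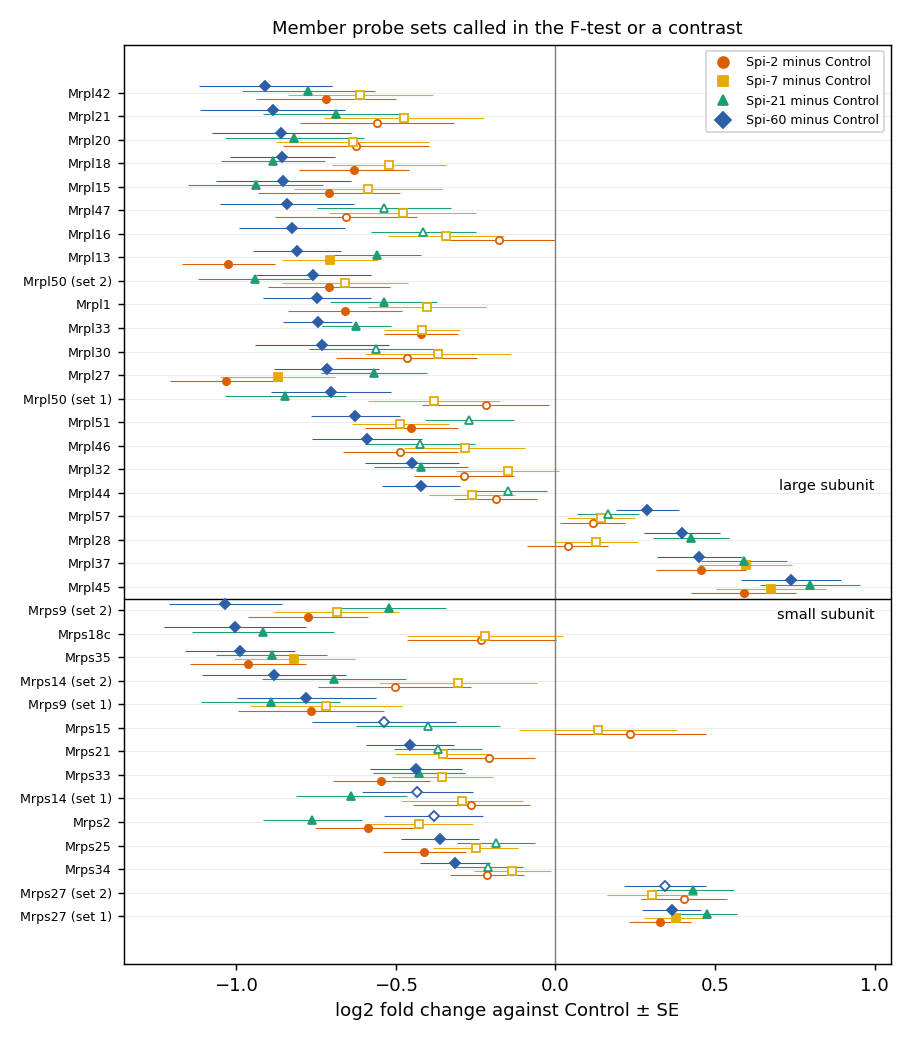
Log2 difference from Control ± SE (limma fit, 31 arrays) of the 36 probe sets called in the F-test or in a comparison, large subunit above and small subunit below the line. Filled symbols passed an adjusted p under 0.05 at that day, and genes with more than 1 called probe set have their sets numbered. Of these probe sets, those of Mrpl57, Mrpl28, Mrpl37, Mrpl45 and Mrps27 lie right of 0 on all 4 days.

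Days shared many of their calls. Of the 79 members, 22 were called at both day 21 and day 60, 15 at days 2, 21 and 60, and 6 on all 4 days, namely Mrpl13, Mrpl27 and Mrps35 (lower) and Mrpl45, Mrpl37 and Mrps27 (higher). When each animal of the groups compared was left out in turn, Mrpl13 kept every call. Mrps35 lost day 7 in 1 of 9 fits and Mrpl27 day 21 in 2 of 12. Mrpl45 lost days 2 and 7 in 3 of 10 and 4 of 9 fits, and Mrps27 (1386471_at) in 5 of 10 and 6 of 9. Mrpl37 lost days 2, 7 and 60 in 7 of 10, 4 of 9 and 3 of 12. Because all comparisons use the same Control arrays, shared calls are not independent. The share of all tested probe sets with such shared calls was not counted. Counted by ranges, 17 members in Spi-2, 17 in Spi-7, 8 in Spi-21 and 25 in Spi-60 lay below Control without overlap (backgrounds 5.33%, 5.45%, 4.98% and 7.46%). Above Control without overlap were 0, 3, 3 and 2 members (backgrounds 4.06%, 3.78%, 2.35% and 5.33%).

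Within the study that made the arrays of Control and both early groups, the F-test on those 15 arrays called 5 members (background 3.01%), which were Mrps35, Mrpl50 (1372927_at), Mrps9 (1373002_at), Mrpl13 and Mrpl27. Between day 7 and day 2, limma called 0 members and 0 of all probe sets (background 0%), with an unadjusted p under 0.05 for 1 member and for 3.56% of all. The fit on the 16 arrays of the earlier study called 0 members between day 60 and day 21 (background 0.00774%), while 11 members and 10.4% of all probe sets had an unadjusted p under 0.05. At day 60, 58 of the 79 members were lower than at day 21, with a median difference of -0.07 and a range from -0.51 (Mrps9) to 0.38 (Mrps2).

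Members with and without a bacterial counterpart were counted apart. The 47 probe sets of bacterial homologs had 9, 2, 15 and 17 lower calls at days 2, 7, 21 and 60 and 0, 0, 1 and 1 higher calls, the latter Mrpl28. The 31 probe sets of proteins found only in mitochondria had 6, 1, 5 and 10 lower calls and 3, 3, 4 and 4 higher calls, among them Mrpl45, Mrpl37 and Mrps27. The lower calls were 19.1%, 4.26%, 31.9% and 36.2% of the homologs and 19.4%, 3.23%, 16.1% and 32.3% of the others, beside 4.98%, 1.67%, 10.7% and 9.89% of all tested probe sets. The higher calls were 0%, 0%, 2.13% and 2.13% of the homologs and 9.68%, 9.68%, 12.9% and 12.9% of the others. Over all tested probe sets they were 3.9%, 0.914%, 5.94% and 7.2%. At day 21 the higher calls of the others included both probe sets of Mrps27. Mrpl55 was left in neither class. The median differences were -0.21, -0.19, -0.27 and -0.34 for the homologs and -0.05, -0.10, -0.20 and -0.27 for the others, and the gap between the classes was not tested.

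For 10 genes more than 1 probe set was measured. Both sets of Mrpl50, Mrps9, Mrps14 and Mrps27 had the same sign on all 4 days. Mrps2 was called lower by 1372116_at only, while 1382782_at and 1393468_at differed by 0.24 and 0.00 at day 21. Mrpl37 was called higher by 1398921_at, and its dimmer set 1394292_at differed by 0.01, -0.01, 0.26 and 0.01 on the 4 days. Mrpl12, Mrpl40, Mrpl57 and Mrps15 had sets of opposite sign on at least 1 day, for Mrpl12 -0.35 against 0.01 at day 60. Of the 68 genes, 21 have a pseudogene listed in RefSeq, and which copy a probe binds was not tested. Mean probe set values ran from 5.37 (Mrps2, 1393468_at), 5.59 (Mrps18c) and 5.72 (Mrpl37, 1394292_at) up to 10.28 (Mrpl12), 10.85 (Mrpl41) and 11.57 (Mrpl37, 1398921_at), and this order gives no order of RNA amounts between genes. In 66 of the 79 probe sets the value was above the array median in all 31 arrays.

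Other uncalled members include the decoding protein Mrps12, which differed by 0.22, 0.17, 0.20 and 0.11 on the 4 days, and Mrpl10, which binds Mrpl12 in the stalk, at 0.10, 0.13, 0.32 and 0.23. Mrpl58, a hydrolase that frees peptides from stalled ribosomes, differed by -0.11, -0.12, -0.26 and -0.28. Mrpl4 was among the 3 highest members at day 60 with 0.42 ± 0.15 and stayed just short of a call (limma adjusted p = 0.0521).

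An index of RNA length differed between the groups and within Spi-21. The Affymetrix control sets for the 3′ and the 5′ end of Gapdh differ more when amplified RNA is shorter. Their difference (3′ minus 5′, log2) ran from 1.80 to 2.50 in Control, from 2.30 to 3.38 in Spi-2, from 2.38 to 3.33 in Spi-7, from 1.13 to 3.54 in Spi-21 and from 2.99 to 3.97 in Spi-60. Spi-21 fell apart along it. Its replicates 1 to 4 lay at 2.76 to 3.54, above every Control animal, and had member means of -0.40 to -0.36, while replicates 5 to 8 lay at 1.13 to 1.66 with member means of -0.14 to 0.02. Microglia markers stood 0.54 to 1.66 above the Control mean in the first 4 animals and between -0.19 and 0.35 in the others, and motor neuron markers between -0.25 and 0.13 and between -0.14 and 0.14. By falling index, the Spi-60 animals lay at 3.97, 3.82, 3.72, 3.69, 3.37, 3.24, 3.14 and 2.99. Their member means in that order were -0.35, -0.13, -0.17, -0.24, -0.34, -0.40, -0.29 and -0.33. The Spi-7 animals lay at 3.33, 3.16, 3.16, 3.02 and 2.38, with member means of -0.15, -0.11, -0.16, -0.13 and -0.33. Those of Spi-2 lay at 3.38, 2.96, 2.92, 2.75, 2.60 and 2.30, with member means of -0.13, -0.26, -0.10, -0.39, -0.22 and -0.12. Across groups, the mean index was 2.01 ± 0.33 in Control (n = 4), 2.82 ± 0.36 in Spi-2 (n = 6) and 3.01 ± 0.37 in Spi-7 (n = 5). It was 2.29 ± 0.94 in Spi-21 (n = 8) and 3.49 ± 0.35 in Spi-60 (n = 8). The member means in the same order were 0, -0.20, -0.18, -0.23 and -0.28. The part of the index in the results was not tested beyond the fit with it as a covariate. Without Spi-21 replicates 1 to 4, 5 members were called lower at day 21 (background 3.38%) and 5 higher (background 1.51%), and without replicates 5 to 8, 40 lower (background 15.2%) and 6 higher (background 10.3%).

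**Figure D4:**
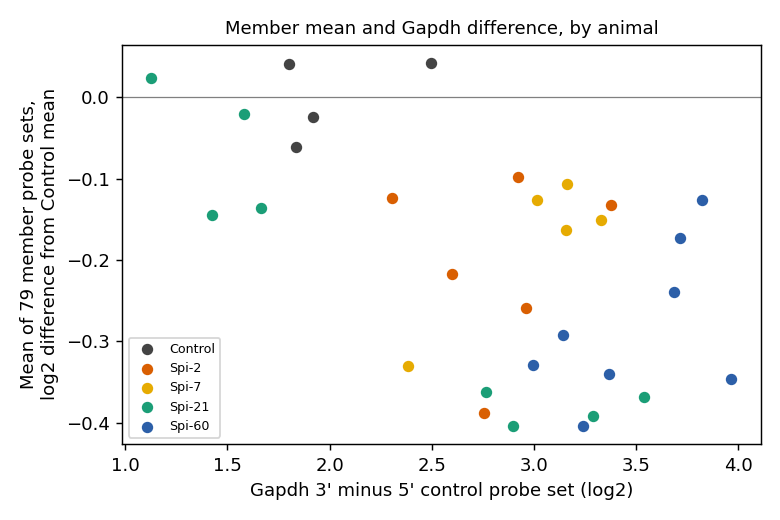
Mean of the 79 members in each animal as log2 difference from the Control mean (vertical) against the Gapdh 3′ minus 5′ difference of its array (horizontal, log2). Points are the 31 animals, coloured by group. The 4 Spi-21 animals left of 1.7 have member means between -0.14 and 0.02 and the 4 right of 2.7 between -0.40 and -0.36.

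With the Gapdh difference as a covariate, limma called 4, 0, 16 and 4 members lower at days 2, 7, 21 and 60 (backgrounds 3.49%, 1.01%, 9.84% and 1.32%). The members called higher numbered 1, 1, 5 and 0 (backgrounds 2.45%, 0.457%, 5.32% and 0.751%). Calls thus became fewer at day 60 over all tested probe sets too. The Gapdh difference of Spi-60 (2.99 to 3.97) did not overlap with that of Control (1.80 to 2.50). At day 60 this fit therefore cannot tell the index and the injury apart, and a lost call does not decide between them. The 19 probe sets that passed both the F-test and a comparison had 56 calls on single days, of which 25 were kept. Mrpl18 kept all of its calls, Mrpl13 those of days 2, 21 and 60, Mrpl33 those of days 21 and 60 and Mrpl37 those of days 2, 7 and 21. Mrpl45 and Mrps27 (1386471_at), called higher on all 4 days without the covariate, kept day 21 alone, with differences of 0.57, 0.66 and 0.71 for Mrpl45 and 0.28, 0.32 and 0.28 for Mrps27 at days 2, 7 and 60. Mrps35 and Mrpl27 kept days 2 and 21, whereas Mrps9 (1373002_at) kept none. None of the 56 differences, which were selected by calls on the same arrays, changed its sign. Of the same 56 calls, 34 were kept whichever single animal was left out.

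The spread of the deposited values also differed between groups. The interquartile range of the arrays was 1.99 ± 0.03 in Control (SD), 1.98 ± 0.06 in Spi-2 and 1.94 ± 0.11 in Spi-7. It was 1.83 ± 0.06 in Spi-21 and 1.87 ± 0.05 in Spi-60. Spi-21 replicates 1 to 4 had 1.74 to 1.83 and replicates 5 to 8 had 1.87 to 1.89. The part of this spread in the results was not tested. Quantile normalizing the deposited values once more moved the balance of the late calls. At day 21 it left 13 members below Control and 8 above (backgrounds 7.85% and 8.54%), where the deposited values gave 20 and 5. At day 60 the split became 20 to 9 (7.27% and 8.94%) in place of 27 to 5. The median member difference then was -0.09, -0.07, -0.06 and -0.17 at days 2, 7, 21 and 60. Among the brighter 50% of the probe sets, which held 71 members, 22.5%, 28.2% and 38% of members were called lower at days 2, 21 and 60 beside 10.1%, 19.5% and 18.5% of all.

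Ribosomal proteins of mitochondria that carry other symbols were represented by 5 genes, all of them negative at days 7, 21 and 60. Aurkaip1 and Chchd1, both of the small subunit, passed the F-test. Aurkaip1 fell by 0.54 ± 0.14, 0.74 ± 0.15 and 0.56 ± 0.13 at days 2, 7 and 60 (limma adjusted p = 0.0144, 0.00549 and 0.00467), and Chchd1 by 0.73 ± 0.22 and 1.04 ± 0.22 at days 21 and 60 (adjusted p = 0.0223 and 0.00164). Ptcd3 was called lower at day 21 (-0.46 ± 0.16). Dap3 and Gadd45gip1 were not called, at -0.40 ± 0.18 and -0.27 ± 0.24 at day 60. None of the day 60 calls of these 5 genes was kept with the Gapdh covariate.

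Factors that work on the mitochondrial ribosome were also measured. Of 14 probe sets of translation factors 0, 0, 1 and 2 were called lower at days 2, 7, 21 and 60 and 0, 0, 1 and 1 higher. The lower calls at days 21 and 60 were 7.14% and 14.3% of them, near the 10.7% and 9.89% of all tested probe sets. Tufm, the elongation factor that brings tRNAs to the ribosome, rose by 0.63 ± 0.12 at day 21 and 0.38 ± 0.12 at day 60 (limma adjusted p = 0.00123 and 0.03). The initiation factor Mtif2 fell by 1.01 ± 0.25 at day 60 and the release factor Mtrf1l by 0.82 ± 0.21 and 0.65 ± 0.21 at days 21 and 60 (adjusted p = 0.00682, 0.00853 and 0.0302). Of 13 probe sets of mitochondrial aminoacyl-tRNA synthetases, which charge the tRNAs, 2 fell at day 21, and at day 60 there was 1 call in each direction (7.69%, beside 9.89% of all probe sets lower and 7.2% higher). The lower calls at day 21 were 15.4% of the list, beside 10.7% of all. Hars2 (1373721_at) fell by 0.79 ± 0.19 and 0.69 ± 0.19 at days 21 and 60 and Vars2 rose by 0.62 ± 0.13 at day 60 (adjusted p = 0.00577, 0.0128 and 0.00143).

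Of 22 probe sets of assembly factors and ribosomal RNA modifying enzymes, 1, 1, 6 and 3 were called lower at days 2, 7, 21 and 60 and 0, 0, 1 and 2 higher. The lower calls were 4.55%, 4.55%, 27.3% and 13.6% of the list, beside 4.98%, 1.67%, 10.7% and 9.89% of all tested probe sets. Gtpbp10, a GTPase of large-subunit assembly, fell by 0.57 ± 0.13 at day 21 (limma adjusted p = 0.00466), and Noa1, another GTPase, by 0.77 ± 0.20 (adjusted p = 0.00828). Malsu1, which keeps the subunits apart until the large one is ready, fell by 0.52 ± 0.11 at day 2 and 0.35 ± 0.10 at day 21 (adjusted p = 0.00227 and 0.0182). Of 19 probe sets for transcription of the mitochondrial genome and stability of its transcripts, 1, 0, 4 and 4 were called lower and 0 higher on any day. The lower calls at days 2, 21 and 60 were 5.26%, 21.1% and 21.1% of that list. The transcription factor Tfb2m fell by 1.00 ± 0.18 and 0.95 ± 0.18 at days 21 and 60 (adjusted p = 0.000705 and 0.000799), and Slirp, which stabilizes mitochondrial messenger RNA, by 0.56 ± 0.18 and 0.78 ± 0.18 (adjusted p = 0.028 and 0.00292).

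The cytosolic ribosome and the respiratory chain give a scale for these changes. Of 45 probe sets of cytosolic ribosomal proteins 3, 2, 10 and 17 were called lower at days 2, 7, 21 and 60 and 3, 1, 1 and 1 higher, with medians of -0.04, -0.12, -0.25 and -0.34. Rpl35a fell by 0.62 ± 0.12 at day 60 (limma adjusted p = 0.000589) and Rps28 rose by 0.51 ± 0.13 (adjusted p = 0.00617). Of 70 probe sets of oxidative phosphorylation subunits 28, 10, 28 and 26 were called lower and 0, 0, 2 and 6 higher, with medians of -0.44, -0.32, -0.28 and -0.32. Cox7b, a subunit of complex IV, fell by 0.86 ± 0.13 at day 2 and 1.08 ± 0.12 at day 60 (adjusted p = 0.00012 and 4.39e-06). As shares of each list, lower calls at day 2 came to 19% of the mitochondrial ribosomal proteins, 6.67% of the cytosolic ones and 40% of the oxidative phosphorylation subunits, and at day 60 to 34.2%, 37.8% and 37.1%, beside 4.98% and 9.89% of all tested probe sets. With the Gapdh covariate the calls of either direction at day 60 came to 4 of 79, 2 of 45 and 6 of 70 probe sets. Over all tested probe sets that fit called 1.32% lower and 0.751% higher. Differences between the lists were not tested.

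**Figure D5:**
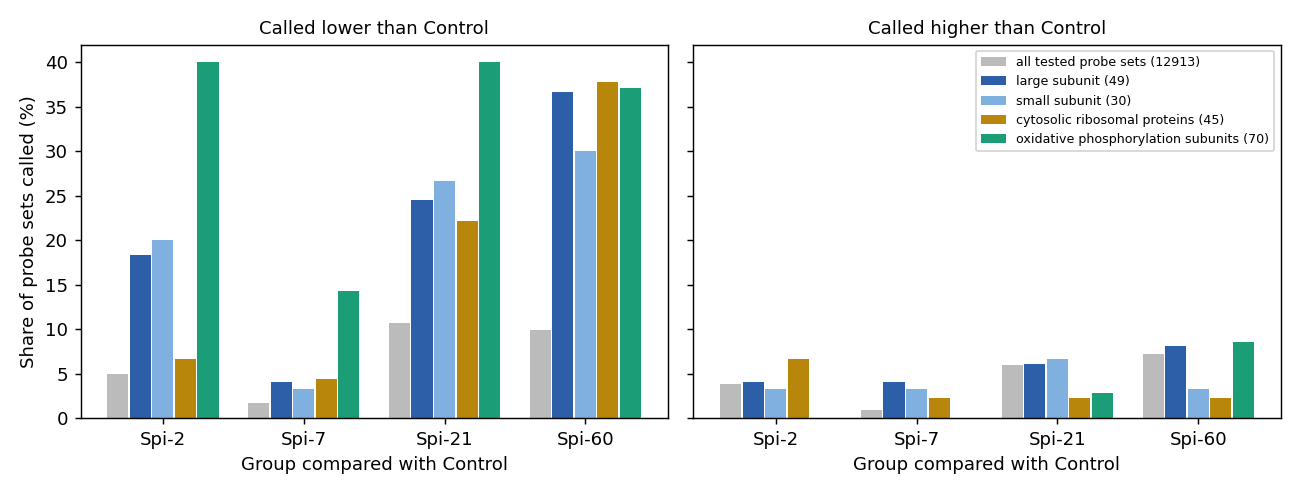
Share of probe sets called lower (left) or higher (right) than Control (limma adjusted p under 0.05) at 2, 7, 21 and 60 days, for all tested probe sets, both subunits of the mitochondrial ribosome, cytosolic ribosomal proteins and oxidative phosphorylation subunits. Numbers in brackets are probe sets. Lower calls at day 2 run from 4.98% of all probe sets over 18.4% and 20% of the large and small subunit to 40% of the oxidative phosphorylation subunits.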

How the data were processed

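Gene expression was measured on 31 Affymetrix rat genome arrays, each from the laser-dissected motor neurons of 1 rat, and groups were taken from the sample labels. Values were deposited as log2 expression. The authors kept the probe sets found in Ensembl, compensated the background, normalized the arrays and summarized them by RMA (so named, without a version, in the processing notes of the submitters), with a second background compensation of the summaries. That left 12919 probe sets, and no raw array file was used here. From these log2 values everything below was computed. The 6 control sets were not tested.

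The 5 group means were fitted without covariates over the 31 arrays in limma 3.58.1 (lmFit, eBayes; R 4.3.3), and p-values were adjusted over all 12913 tested probe sets by Benjamini and Hochberg. The moderated F-test was called at 0.02 and contrasts, two-sided, at 0.05. Days 0, 2 and 7 (15 arrays) and day 60 against day 21 (16 arrays) were also fitted within each study. Gene symbols came from the platform annotation, which gives 11880 probe sets 1 symbol, 320 several and 713 none, and all 68 member symbols are current in RefSeq. Promoters came from a RefSeq table of GRCr8.

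The members and the gene lists were chosen with earlier results of these data known. Named were all members called in the F-test or a contrast, the 3 lowest and 3 highest of each contrast, the 3 brightest and 3 dimmest and all genes with several probe sets, with full values for the 12 smallest F-test p and for called small-subunit probe sets. In related lists 2 to 4 genes of small F-test p were named. Mrpl10, Mrps12 and Mrpl58 were added for their roles, after their values were seen. Figures were drawn with matplotlib 3.10.9. The scripts were tested on simulated data. The number of arrays limits the precision. Alternatives were a further quantile normalization, a filter on dim probe sets, a Gapdh 3′ to 5′ covariate, the replicate number as a block, array weights, trend and robust variances, only the groups compared, 1 probe set per gene, leaving out each array, and leaving out Spi-21 replicates 1 to 3. Leaving out Spi-21 replicates 1 to 4 or 5 to 8, and counting Mrps18a and Mrps30 with the large subunit, were chosen after seeing the data. Consensus clustering, tests of ontologies and of transcription factor sites were not repeated.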

Additional observations from a re-analysis of the deposited data

Results flagged for a closer look

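Of 120 groups of values checked, 10 held an animal far from the others of its group, and chance gives about 1 in 20. In Control, replicate 1 read 8.89 for Mrpl15 where the other animals read 8.07 to 8.12. In Spi-2, replicate 2 read 7.54 for Mrpl42 (others 6.82 to 7.06) and 8.42 for Mrpl50 by probe set 1372927_at (others 7.62 to 7.89), and replicate 1 read 8.29 for Mrpl1 (others 8.79 to 8.94). In Spi-7, replicate 5 stood apart in the mean of all 79 members, at -0.33 against -0.16 to -0.11, and read 7.98 for Mrpl28 (others 7.79 to 7.83) and 8.51 for Mrpl1 (others 9.09 to 9.26). Its Gapdh 3′ minus 5′ difference was 2.38, where the other Spi-7 animals lay at 3.02 to 3.33, and the interquartile range of its array was 1.75. In Spi-21, replicate 3 read 7.15 for Mrpl18 (others 7.60 to 7.99). In Spi-60, replicate 3 read 7.79 for Mrpl28 (others 8.08 to 8.28) and replicate 2 read 8.22 for Mrpl27 (others 7.34 to 7.75).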

How the results depend on the processing

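With the Gapdh covariate the members called numbered 5 at day 2, 1 at day 7, 4 at day 60 and 9 in the F-test within days 0, 2 and 7, against 18, 6, 32 and 5. Array weights gave 34 calls in the F-test over 5 groups (20 without) and 14 at day 7. Those at day 7 were 10 lower (background 6.47%) and 4 higher (background 5.38%). Without Spi-21 replicates 1 to 3, 10 members were called at day 7, 7 lower (background 2.54%) and 3 higher (background 1.27%). At day 21 that fit called 10 (25 with them), 7 lower (background 3.91%) and 3 higher (background 1.36%). Without replicates 1 to 4, 10 were called at day 21, and without replicates 5 to 8, 46, with the backgrounds given above. Without replicates 5 to 8 the F-test called 35. The cause of these shifts was not tested. With the replicate number as a block, 3 members were called at day 7 and 0 in the F-test within days 0, 2 and 7, while the counts were 19 in the F-test over 5 groups and 14, 27 and 30 at days 2, 21 and 60. Backgrounds of that fit at days 2, 7, 21 and 60 were 3.91%, 1.22%, 10.4% and 9.79% lower and 3.24%, 0.627%, 5.95% and 7.53% higher. For the F-tests under the alternatives the share over all tested probe sets was not counted. Animals share only a number: same-numbered animals of different groups correlated at a mean r of -0.03 (51 pairs, -0.33 to 0.35), and 2 of 31 arrays correlated best with their own number.

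Leaving out each animal in turn gave 12 to 26 calls in the F-test, 8 to 19 at day 2, 2 to 6 at day 7, 17 to 32 at day 21, 24 to 33 at day 60, 2 to 10 within days 0, 2 and 7, and 0 for both day 7 against day 2 and day 60 against day 21. The share over all tested probe sets was not counted for these fits. The count moved by over 1.5 times without Control replicate 3 (F-test 12, day 2 8, day 7 2, days 0, 2 and 7 3), Control replicate 1 (day 2 8, day 7 3, days 0, 2 and 7 2), Control replicate 4 (day 2 10), Spi-2 replicate 3 (day 2 10), Spi-2 replicate 6 (day 2 11) and Spi-7 replicate 5 (days 0, 2 and 7 10). The large minus small median ran from -0.057 to 0.019 at day 2, -0.11 to -0.02 at day 7, -0.08 to 0.02 at day 21 and -0.080 to 0.0086 at day 60. It thus took either sign at days 2, 21 and 60. None of the 56 single-day calls of the 19 probe sets that passed both the F-test and a comparison changed its sign under the alternatives run on them. Because these calls were selected by tests on the same arrays, a kept sign says little about their stability. A member without a call is not shown to be unchanged.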
